A study of Mus musculus with 31 samples.

Results

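The genes described here are the mouse zinc finger genes numbered Zfp600 to Zfp999, protein-coding genes in the GENCODE annotation whose symbol is Zfp followed by a number in that range and nothing else. They were taken where their exonic signal averaged at least 1 TPM, a level scaled by transcript length and library total, over 16 libraries from embryonic stem cells. Of 171 genes with such a symbol, 144 reached that level, out of 11279 protein-coding genes that did so. The other 27 lay below it, and 1 of them was listed at 0. Just inside the limit were Zfp619 at 1.05 TPM, Zfp775 at 1.11 TPM and Zfp707 at 1.40 TPM, and just outside it were Zfp697 at 0.946 TPM, Zfp821 at 0.792 TPM and Zfp653 at 0.788 TPM. The comparison family of the same naming, Zfp1 to Zfp599, had 164 genes past the limit.

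The study used DTCM23/49 XY mouse embryonic stem cells, a line with a conditional Dicer mutation, grown in serum with LIF on gelatin. Dicer cuts microRNA precursors, so cells without it lose mature microRNAs. The tested cells were Dicer-depleted (KO) cells after 8 days of treatment, where 4-hydroxytamoxifen was given at 800 nM, and the reference was WT cells, which the labels also give as 8 days. No tamoxifen is listed for WT cells, and whether they got vehicle is not given. Effects of the drug and of Dicer loss therefore cannot be told apart here. Newly made RNA was marked with 200 µM 4-thiouridine for 10 or 15 min and separated from the preexisting RNA. Each genotype had 2 biological replicates, called cultures 1 and 2 here, each with a labelled and a preexisting library at both labelling times, so 4 libraries per genotype and fraction. All cells carry the same conditional allele in 1 parental line, and nothing in the labels says whether the replicates were separate clones, so p-values measure the spread between these samples. The other 15 libraries of the series hold small RNA and were not used here.

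A C2H2 zinc finger is a short protein fold held by a zinc ion between a pair of cysteines and a pair of histidines. Arrays of such fingers read DNA, and neighbouring fingers are joined by a conserved linker. Many mouse members also carry a KRAB domain, which recruits the corepressor Trim28 and, through it, histone methylation and heterochromatin, and several silence endogenous retroviruses in embryonic stem cells. mRNAs of this family are known for fast turnover. RNA made during a short pulse is a larger share of a transcript that is replaced quickly, which is why the ratio of labelled to preexisting RNA is the central measure here.

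The family shares the finger fold, and some of its genes are near copies of each other. A script searched the longest coding sequence of each gene for the finger pattern: 129 of the 144 genes (89.6%) had at least 3 fingers, against 4.47% of protein-coding genes, with a median of 11 and a maximum of 33 fingers. For 6 genes from the chromosome 4 cluster described below, the first finger linker with the exact peptide HTGEKP is shown. This peptide occurred 12 times in Zfp987, 8 times each in Zfp600 and Zfp985, and 4 times in Zfp981. It occurred 2 times in Zfp993 and only 1 time in Zfp979. The linker is conserved among C2H2 genes in general, so likeness over it does not by itself mark near copies. Capitals mark the codons from the last histidine of a finger through the linker to the next finger, in 30 bases of the coding strand from GRCm38.p6.
Zfp979, chr4:147613141-147613170, minus strand: acaattCATACAGGAGAGAAACCTtacaaa
Zfp600, chr4:146195574-146195603, plus strand: agaattCATACAGGAGAGAAACCTtacaaa
Zfp987, chr4:146124777-146124806, plus strand: agaattCATACAGGAGAGAAACCTtacaaa
Zfp993, chr4:146657998-146658027, plus strand: agaattCATACAGGAGAGAAACCTtacaaa
Zfp985, chr4:147583364-147583393, plus strand: ggaattCATACAGGAGAGAAACCTcacaaa
Zfp981, chr4:146537394-146537423, plus strand: agaattCATACGGGAGAGAAACCTtacaaa
The capitals were identical in 5 of the 6 genes, and 3 genes were identical over all 30 bases. The windows were found by the peptide HTGEKP, so the capitals had to encode the same amino acids. Only synonymous bases could differ there, and the likeness of the capitals is no finding about these genes. Over whole transcripts, 24 of the 144 genes shared more than 50% of their 50-base words with other genes, and 84 shared less than 5%. A word counts as shared if any other gene holds it, so the share with any 1 gene can be lower. Zfp986, for example, shared 86.9% of its words in all and 67.6% with its closest partner, Zfp988. Reads from shared words can be assigned to any gene that holds them, so levels of single genes in the first set are uncertain.

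Because Dicer makes the microRNAs of these cells, the abundant embryonic stem cell microRNAs and their matches in the 3′ UTRs of Zfp827 and Zfp800 are shown next. These 2 genes had the highest changes with Dicer depletion in preexisting RNA. The mature microRNAs, from RefSeq, carry their seed (bases 2 to 8) in capitals, and the first 3 share 1 seed.
mmu-miR-291a-3p: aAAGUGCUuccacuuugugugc
mmu-miR-294-3p: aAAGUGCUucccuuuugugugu
mmu-miR-295-3p: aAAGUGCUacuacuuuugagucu
mmu-miR-17-5p: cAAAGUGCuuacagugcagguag
The DNA match to the shared seed is AGCACTT on the transcript strand, and the match to the miR-17-5p seed is GCACTTT, which overlaps it by 6 letters. The sites below are 30 bases of GRCm38.p6 on the gene's strand, with AGCACTT in capitals.
Zfp827, chr8:79191968-79191997, plus strand: agtttctgtgcAGCACTTtattgcggcagg
Zfp827, chr8:79193126-79193155, plus strand: gcaacttttttAGCACTTtggaaagagtca
Zfp827, chr8:79193465-79193494, plus strand: gtagggttctaAGCACTTtctctctcctgt
Zfp800, chr6:28241446-28241475, minus strand: atgcccattccAGCACTTtcgagtcgctgt
Zfp800, chr6:28241093-28241122, minus strand: attttttctttAGCACTTaaatgtttgaaa
Zfp800, chr6:28240937-28240966, minus strand: attttatataaAGCACTTtaatgatagatg
In Zfp827 the matches start 2330, 3488 and 3827 bases after the stop codon in a 3′ UTR of 4094 bases. In Zfp800 they start 193, 546 and 702 bases after it in a 3′ UTR of 1730 bases. All but 1 of the 6 windows also hold GCACTTT 1 base further on. AGCACTT occurred in the 3′ UTR of 20 of the 144 genes (13.9%), against 15.3% of protein-coding genes, and GCACTTT in 14 (9.72%), against 12.9%. These shares count genes without an annotated 3′ UTR as having no match. Only 124 of the 144 genes had one, against 10962 of 11277 protein-coding genes. The shares are therefore not like for like and do not show fewer matches in the family. Zfp827 and Zfp800 were the 2 zinc finger genes with 3 or more AGCACTT matches, a number that 71 protein-coding genes (0.630%) reached. A match describes these letters and not a site in use.

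The libraries carried the marks of their labels. Preexisting Dicer1 RNA lay at 1.203 to 3.37 TPM in KO cells and 13.4 to 17.9 TPM in WT cells, a log2 change of −2.29 (limma adjusted p = 0.0347). Labelled Dicer1 RNA lay at 2.35 to 3.52 TPM in KO cells and 7.34 to 9.65 TPM in WT cells, which was not called (log2 change −1.26, adjusted p = 0.143). All 8 embryonic stem cell markers (Pou5f1, Nanog and others) were measured, with summed levels of 946 to 1544 TPM over KO libraries and 1192 to 1696 TPM over WT libraries, and none was called between genotypes in exonic RNA. None of 6 fibroblast or feeder markers and none of 4 trophoblast markers averaged 1 TPM, and Dab2 of the 5 primitive endoderm and Pax6 of the 4 neural or mesoderm markers did. In this bulk material, fewer cells of a type and less RNA per cell cannot be told apart. The number of reads behind each library is unknown, since the deposited values are scaled to a fixed total.

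The zinc finger genes were as abundant at the median as other genes, and 1 cluster held most of their RNA. Their median level was 9.64 TPM over all libraries, against 10.2 TPM for protein-coding genes, with a maximum of 679 TPM. Summed over the 144 genes, labelled RNA held 7476 ± 105 TPM in KO cells and 8001 ± 843 TPM in WT cells, and preexisting RNA held 8161 ± 680 TPM in KO cells and 8436 ± 1265 TPM in WT cells (SD, n = 2 cultures here and below, where 10 and 15 min were averaged within a culture). The genes lay on 18 chromosomes, and 75 of them stood in 8 clusters of at least 5 members with gaps under 1 Mb. The largest, 17 genes at chr4:145510759-147848366 (GRCm38), supplied 57.5% to 70.1% of the family's TPM in each library. Its sum in preexisting RNA was 5328 ± 688 TPM in KO cells and 5779 ± 1011 TPM in WT cells, and in labelled RNA 4327 ± 64.3 TPM in KO cells and 4809 ± 391.8 TPM in WT cells. Deletion of KRAB zinc finger clusters in mouse embryonic stem cells, this one included, is known to raise transcripts of some endogenous retroviruses.

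Of the 10 genes with the highest preexisting level in WT cells, 9 belonged to that cluster. Zfp979 led with 751 ± 120 TPM in KO cells and 724 ± 144 TPM in WT cells. Its preexisting libraries read 737, 596, 785 and 888 TPM in KO cells (culture 1 at 10 and 15 min, then culture 2 in the same order, as in all such lists), against 618, 626, 913 and 738 TPM in WT cells. The genotypes overlapped, and the high values sat in culture 2 of both. Zfp993 had 532 ± 76.1 TPM in KO cells and 688 ± 180 TPM in WT cells, and Zfp978 had 667 ± 130 TPM in KO cells and 650 ± 129 TPM in WT cells. Zfp600 had 589 ± 110 TPM in KO cells and 576 ± 109 TPM in WT cells, and Zfp985 had 444 ± 22.7 TPM in KO cells and 526 ± 65.3 TPM in WT cells. Zfp987, Zfp989, Zfp981 and Zfp986 followed with 423, 365, 344 and 276 TPM in WT cells. None of these 9 genes was called between genotypes in either fraction. The exception by position was Zfp638 on chromosome 6, whose human counterpart ZNF638 silences unintegrated retroviral DNA with the HUSH complex: it had 466 ± 60.01 TPM in KO cells and 434 ± 69.8 TPM in WT cells. Zfp638 shared no 50-base word with another gene, whereas the cluster's genes shared a median of 72.6% of theirs, so the order of levels within the cluster rests on how reads of near copies were split.

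**Figure D1:**
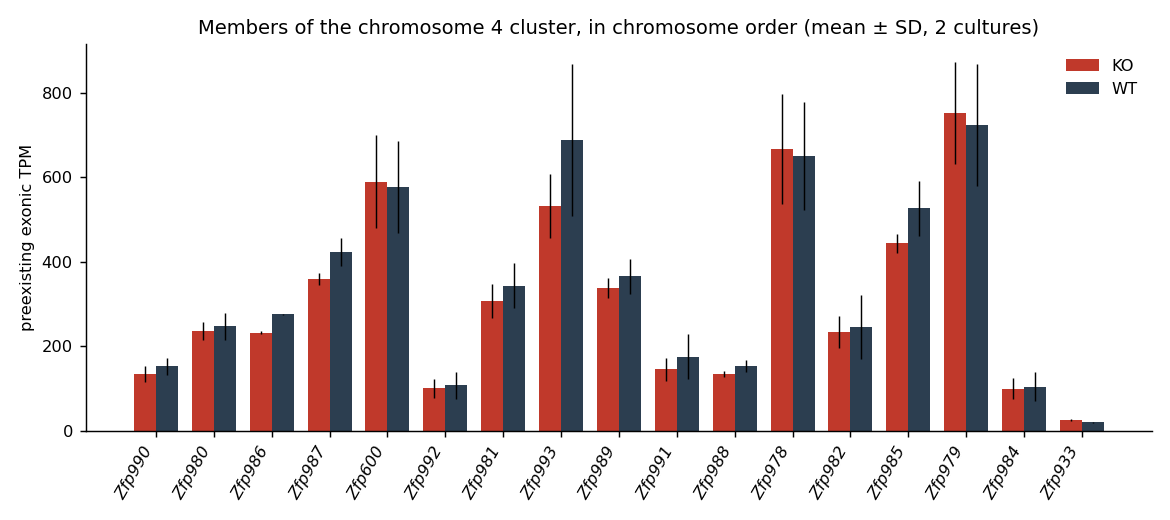
Preexisting exonic level in TPM of the 17 zinc finger genes of the chromosome 4 cluster, left to right along the chromosome. Bars are means of 2 cultures in KO (red) and WT (dark) cells with SD; Zfp979 is highest at 751 TPM in KO cells and 724 TPM in WT cells, and Zfp933 is lowest.

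A second group of near copies, 10 genes at chr2:175372436-178078476 with a median of 89.1% shared words, summed to 606 ± 10.9 TPM in labelled RNA of KO cells and 625 ± 102 TPM in WT cells. In preexisting RNA the same group had 454 ± 52.0 TPM in KO cells and 429 ± 30.4 TPM in WT cells. The other 6 clusters held 6 to 14 genes each and shared a median of 7.93% of words or less. Zfp932 on chromosome 5, known to repress ERVK elements, was outside the clusters at 129 ± 1.01 TPM in preexisting RNA of KO cells and 124 ± 12.5 TPM in WT cells. It shared 55.5% of its words with other genes, so its level is uncertain too. Zfp809, which silences murine leukaemia virus through its primer binding site, had 10.5 ± 2.01 TPM in KO cells and 7.37 ± 0.417 TPM in WT cells. Neither was called.

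The first question was how much of each mRNA was newly made. In KO cells the log2 ratio of labelled to preexisting RNA had a median of 0.24 over the 144 genes, against −0.05 over the other 11135 protein-coding genes. In WT cells the medians were 0.24 and −0.03. Among Zfp1 to Zfp599 the median was 0.14 in KO cells and 0.18 in WT cells. A ratio is on the log2(TPM + 1) scale, which understates low genes, and genes were called at a limma adjusted p under 0.05 over all 21821 genes and other entries. Relative to the median of all protein-coding genes, the zinc finger median lay 0.28 higher in KO cells and 0.26 higher in WT cells, and 105 genes (72.9%) in KO cells and 110 (76.4%) in WT cells lay above that coding median.

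In KO cells, 31 zinc finger genes (21.5%) were higher in labelled RNA and 6 (4.17%) lower, where the background was 13.8% higher and 18% lower over protein-coding genes and 33.1% higher and 13.4% lower over all entries. In WT cells, 25 (17.4%) were higher and 5 (3.47%) lower, with a background of 9.8% and 12.4% over protein-coding genes and 28.7% and 9.78% over all entries. The family thus stood above protein-coding genes in the share called higher and below them in the share called lower, and did not exceed all entries, which include non-coding RNA. Zfp1 to Zfp599 had 24 higher and 6 lower in KO cells, and 25 higher and 4 lower in WT cells. The genes called higher in both genotypes numbered 18, which is 58.1% of the KO list and 72.0% of the WT list. All 5 genes called lower in WT cells were also called lower in KO cells. The overlap of calls over all protein-coding genes is not given, and both genotypes share 1 estimate of the spread. The overlap therefore describes these lists and is no trait of the family. The counts of calls in each genotype rest on both cultures. With 1 culture left out, the 37 KO calls became 19 without KO culture 1, 14 without KO culture 2, 13 without WT culture 1 and 15 without WT culture 2. The 30 WT calls became 0 without WT culture 1 and 0 without WT culture 2.

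The counts depend on the zero of the scale too. When each library was centred on its median gene, which moved the median of all entries down by 0.51 in KO cells and 0.48 in WT cells, the split turned to 7 higher and 36 lower in KO cells and 8 higher and 24 lower in WT cells, with family medians of −0.27 and −0.24. With the same centring, 4.52% of protein-coding genes were higher and 42.5% lower in KO cells, and 3.13% higher and 37.1% lower in WT cells, against 4.86% and 25% of the zinc finger genes in KO cells and 5.56% and 16.7% in WT cells. The distance from the coding median stayed at 0.28 and 0.26. The ratios and calls of single genes and groups below are against the uncentred zero unless stated. Their direction therefore has to be read beside that of other genes of the same libraries.

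**Figure D2:**
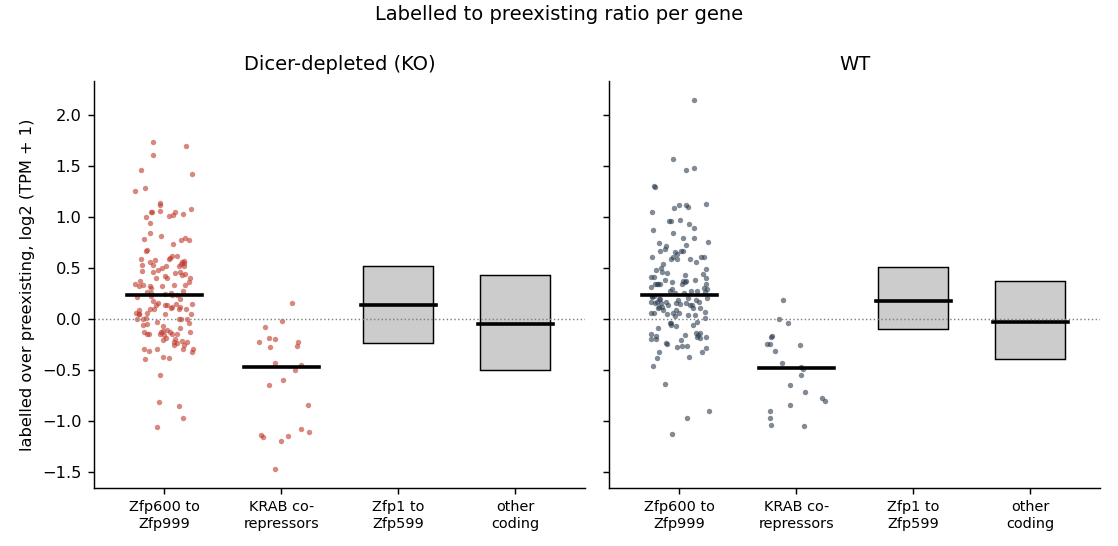
Log2 ratio of labelled to preexisting exonic RNA, log2 (TPM + 1), in KO cells (left) and WT cells (right). Points are single genes, bars are medians, and boxes span the first to the third quartile; the 144 zinc finger genes have a median of 0.24 in both genotypes, the 22 genes of the corepressor list, Zfp57 among them, −0.47 in KO cells and −0.48 in WT cells, and the other coding genes −0.05 in KO cells and −0.03 in WT cells.

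Zfp655, whose human counterpart is a KRAB protein that binds the signalling protein VAV1, had the highest ratio in KO cells. Its labelled libraries read 104, 81.4, 104 and 90.5 TPM in KO cells, against 71.7, 48.9, 116 and 91.1 TPM in WT cells. Its preexisting libraries read 41.5, 24.6, 24.0 and 23.8 TPM in KO cells, against 17.8, 19.0, 41.5 and 30.9 TPM in WT cells. Every labelled library was above every preexisting one of its genotype, while the genotypes overlapped in both fractions. The log2 ratio was 1.74 in KO cells (SE 0.18, limma adjusted p = 0.00223) and 1.56 in WT cells (SE 0.18, adjusted p = 0.00353).

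Zfp672 had the highest ratio in WT cells. Its labelled libraries read 11.8, 14.2, 18.3 and 19.1 TPM in KO cells, against 12.2, 10.2, 18.5 and 22.1 TPM in WT cells, and its preexisting libraries read 4.84, 4.11, 6.91 and 2.67 TPM in KO cells, against 2.78, 2.54, 3.74 and 1.68 TPM in WT cells. The fractions did not overlap in either genotype. The log2 ratio was 1.61 in KO cells (SE 0.28, adjusted p = 0.00717) and 2.15 in WT cells (SE 0.28, adjusted p = 0.00457).

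Zfp974, a gene of 21 fingers, was close behind with 52.3 ± 2.91 TPM labelled and 16.6 ± 0.390 TPM preexisting in KO cells, and 55.3 ± 0.904 TPM labelled and 19.1 ± 2.09 TPM preexisting in WT cells. Its log2 ratio was 1.69 in KO cells (adjusted p = 0.00232) and 1.49 in WT cells (adjusted p = 0.00394). Zfp709, Zfp626, Zfp770 and Zfp950 had log2 ratios of 1.42, 1.14, 1.05 and 1.03 in KO cells and 1.30, 1.13, 1.05 and 1.12 in WT cells, each called in both. Zfp746, also named PARIS, which represses Ppargc1a and is a substrate of Parkin, had a ratio of 1.25 in KO cells (adjusted p = 0.0359) and 1.09 in WT cells (adjusted p = 0.0624). Zfp612 was the reverse case, at 0.78 in KO cells (adjusted p = 0.0693) and 1.12 in WT cells (adjusted p = 0.0277). Those differences between genotypes were themselves not called.

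At the other end stood Zfp652, whose human counterpart represses transcription together with CBFA2T3. Its labelled libraries read 19.8, 31.2, 31.4 and 26.9 TPM in KO cells, against 24.6, 24.8, 29.6 and 38.8 TPM in WT cells, and its preexisting libraries read 35.5, 65.8, 43.4 and 51.1 TPM in KO cells, against 40.0, 67.7, 88.6 and 70.7 TPM in WT cells. Every preexisting library was above every labelled one of its genotype. The log2 ratio was −0.81 in KO cells (SE 0.16, adjusted p = 0.0113) and −1.12 in WT cells (SE 0.16, adjusted p = 0.00589). Zfp710 had 18.4 ± 0.199 TPM labelled and 39.6 ± 6.10 TPM preexisting in KO cells, and 19.8 ± 4.57 TPM labelled and 39.7 ± 3.64 TPM preexisting in WT cells, ratios of −1.06 and −0.97 that were called in both. Zfp957 was called lower in both at −0.85 in KO cells and −0.89 in WT cells. Zfp638 had −0.54 in KO cells (adjusted p = 0.0133) and −0.32 in WT cells (adjusted p = 0.0745).

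The chromosome 4 cluster had the lowest median ratio of the 8 clusters, at −0.21 in KO cells and −0.18 in WT cells, with none called higher and 2 called lower, Zfp978 and Zfp993, in each genotype. The 127 genes outside that cluster had a median of 0.33 in KO cells, with 31 higher and 4 lower, and 0.30 in WT cells, with 25 higher and 3 lower. For comparison, 13.8% of protein-coding genes were called higher and 18% lower in KO cells, and 9.8% and 12.4% in WT cells. Over all entries these shares were 33.1% and 13.4% in KO cells and 28.7% and 9.78% in WT cells. Zfp978 had 336 ± 2.603 TPM labelled and 667 ± 130 TPM preexisting in KO cells (log2 ratio −0.97, adjusted p = 0.00456), and 416 ± 43.5 TPM labelled and 650 ± 129 TPM preexisting in WT cells (log2 ratio −0.63, adjusted p = 0.0193). Zfp993 was called at −0.38 in both. The cluster on chromosome 8 had the highest median, 0.56 in KO cells and 0.50 in WT cells. The distal chromosome 7 cluster had 0.52 in KO cells and 0.28 in WT cells, and the chromosome 2 cluster, also of near copies, had 0.41 in KO cells and 0.42 in WT cells. No test of one cluster against another was made.

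**Figure D3:**
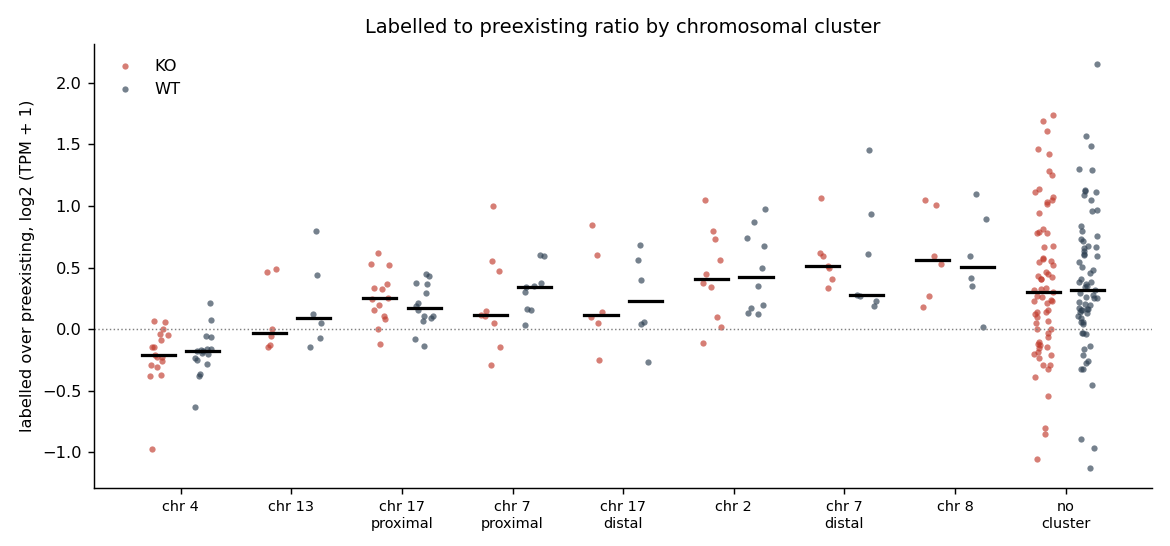
Log2 ratio of labelled to preexisting exonic RNA of each zinc finger gene by chromosomal cluster, KO cells in red left of WT cells in dark, bars at the median. The chromosome 4 cluster sits at −0.21 in KO cells and −0.18 in WT cells and the chromosome 8 cluster at 0.56 and 0.50, and the genes outside any cluster cover the widest range.

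The chromosome 4 values depended on how transcripts were weighted. TPM counts per base of transcript, and 42.2% of that cluster's TPM lay on annotated transcripts shorter than 1000 bases, as did more than 50% of the TPM of 33 of the 144 genes. With signal weighted by length, an alternative chosen after seeing the data, the cluster's median ratio was 0.29 in KO cells (4 higher, 1 lower) and 0.14 in WT cells (none called). This weighting raised all protein-coding genes as well: relative to their median the cluster lay 0.03 higher in KO cells and −0.06 in WT cells, against −0.16 in both genotypes before weighting. The family's median was 0.59 in KO cells (67 higher, 3 lower) and 0.52 in WT cells (51 higher, 2 lower), against 0.25 in KO cells and 0.20 in WT cells for the other protein-coding genes. Of all protein-coding genes, 26.2% were then called higher and 8.72% lower in KO cells, and 18.6% higher and 6.75% lower in WT cells. Its distance from the median of all protein-coding genes was 0.33 in KO cells and 0.32 in WT cells.

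The 84 genes that shared less than 5% of their words had a median ratio of 0.35 in KO cells and 0.33 in WT cells. The 129 genes with at least 3 fingers had 0.26 in KO cells and 0.28 in WT cells, and the 15 with fewer had −0.14 and 0.04. As a description over the 144 genes, which share libraries and in part reads, the ratios of KO and WT cells had a Spearman correlation of 0.79. Against the mean level the correlation was −0.39 in KO cells and −0.32 in WT cells, and −0.19 and −0.13 over the 84 genes with few shared words; the level enters the ratio, so the measures are not independent. Against coding length, 3′ UTR length, number of fingers and number of ATTTA pentamers in the 3′ UTR, values over the 144 genes lay between −0.15 and 0.17. Only 124 of these genes had an annotated 3′ UTR. The rest entered the 3′ UTR correlations as having no length and no pentamers. Labelled RNA at 15 min over 10 min had a median log2 ratio of −0.10 in KO cells and −0.02 in WT cells, against 0.09 and −0.004 for protein-coding genes.

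Genes that KRAB proteins work with had median ratios below that of protein-coding genes. Of 22 listed genes, including Trim28, Setdb1, the HP1 genes Cbx1, Cbx3 and Cbx5, members of the HUSH and NuRD complexes, and Zfp57, which is itself a KRAB zinc finger gene of the Zfp1 to Zfp599 family, none was higher in labelled RNA and 12 were lower, in each genotype. Of protein-coding genes, 13.8% were called higher and 18% lower in KO cells, and 9.8% and 12.4% in WT cells. The medians of the 22 genes were −0.47 in KO cells and −0.48 in WT cells. Trim28 had 403 ± 71.6 TPM labelled and 908 ± 256 TPM preexisting in KO cells, and 529 ± 104 TPM labelled and 953 ± 135 TPM preexisting in WT cells, log2 ratios of −1.19 (adjusted p = 0.00218) and −0.84 (adjusted p = 0.00577). Between genotypes none of the 22 was called in either fraction, with medians of 0.06 in preexisting and −0.09 in labelled RNA.

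The second question was what differed in preexisting RNA after Dicer depletion. One zinc finger gene, Zfp827, was called higher in KO cells and none lower, where the background was 0.816% higher and 0.239% lower over protein-coding genes and 0.5% and 0.147% over all entries. The median log2 change over the 144 genes was −0.03, with 64 positive, against 0.04 over protein-coding genes, and 12 genes had an unadjusted p under 0.05. Zfp1 to Zfp599 had a median of 0.12 and 1 gene called higher. By library values alone, 6 genes (Zfp644, Zfp750, Zfp809, Zfp820, Zfp827 and Zfp936; 4.17%) had all 4 KO libraries above all 4 WT libraries, a pattern of 9.03% of protein-coding genes and 7.03% of all entries. The opposite order held for 8 genes (Zfp664, Zfp667, Zfp825, Zfp941, Zfp972, Zfp986, Zfp987 and Zfp988; 5.56%), against 3.11% of protein-coding genes and 2.87% of all entries. Of these, Zfp972, Zfp986, Zfp987 and Zfp988 shared 58.4%, 86.9%, 93.1% and 72.7% of their words with other genes. Near copies can draw on the same reads, so this count is not one of independent genes.

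Zfp827, whose human counterpart recruits the NuRD complex to telomeres in cells that lengthen them by recombination, lies at chr8:79028437-79193766 on the plus strand and shares 1.24% of its words. Its preexisting libraries read 20.5, 23, 21.5 and 19.3 TPM in KO cells, against 6.22, 12.3, 6.31 and 8.02 TPM in WT cells. All KO libraries were above all WT libraries. The means were 21.1 ± 0.994 TPM in KO cells and 8.21 ± 1.48 TPM in WT cells, a log2 change of 1.30 (SE 0.20, limma adjusted p = 0.0431).

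In labelled RNA the difference of Zfp827 was smaller. Its labelled libraries read 15.0, 21, 19.4 and 22.1 TPM in KO cells, against 15.98, 13.4, 13.4 and 15.4 TPM in WT cells, and they overlapped. The means were 19.4 ± 1.95 TPM in KO cells and 14.6 ± 0.213 TPM in WT cells (log2 change 0.38, adjusted p = 0.45). Its intronic labelled RNA, a measure close to transcription, had 15.8 ± 0.804 TPM in KO cells and 10.5 ± 0.520 TPM in WT cells (log2 change 0.55, adjusted p = 0.0771). The labelled to preexisting ratio was −0.13 in KO cells (adjusted p = 0.61) and 0.80 in WT cells (adjusted p = 0.0222), and the difference of −0.93 between them was not called (unadjusted p = 0.0142, adjusted p = 0.997). The preexisting call lies near the threshold: it was lost with any 1 culture left out (log2 change 1.17 to 1.44, adjusted p 0.202 to 0.4), with either labelling time alone, with no filter on low genes (adjusted p = 0.106), with centring (adjusted p = 0.0606) and in a fit of preexisting libraries alone (adjusted p = 0.44).

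Zfp800, at chr6:28239927-28398005 on the minus strand, had the largest preexisting change of the 144 genes but did not pass. Its preexisting libraries read 27.1, 10.9, 32.6 and 21.4 TPM in KO cells, against 3.51, 4.11, 26.5 and 7.80 TPM in WT cells. The 10 min library of WT culture 2 stood with the KO libraries, so the genotypes overlapped. The means were 23 ± 5.67 TPM in KO cells and 10.5 ± 9.44 TPM in WT cells, with a log2 change of 1.37 (SE 0.53, adjusted p = 0.237) that was 0.53 without WT culture 1 and 2.22 without WT culture 2.

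In labelled RNA, Zfp800 libraries read 22.8, 12.9, 26.1 and 15.3 TPM in KO cells, against 5.75, 5.78, 9.75 and 12.3 TPM in WT cells. All KO libraries were above all WT libraries. The log2 change was 1.12 (adjusted p = 0.412), and in intronic labelled RNA 1.22 (8.37 ± 1.64 TPM in KO cells, 3.10 ± 1.44 TPM in WT cells, adjusted p = 0.052). Neither passed.

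Zfp644, whose human counterpart guides the histone methyltransferases G9a and GLP, read 234, 142, 165 and 220 TPM in preexisting libraries of KO cells, against 80.8, 128, 117 and 120 TPM in WT cells. The groups did not overlap, and the log2 change of 0.76 (SE 0.21, adjusted p = 0.136) did not pass. Its labelled libraries read 248, 223, 171 and 148 TPM in KO cells, against 179, 153, 166 and 173 TPM in WT cells, and overlapped. Zfp704 had 7.80 ± 0.689 TPM in KO cells and 4.17 ± 0.487 TPM in WT cells, a log2 change of 0.79 that did not pass (adjusted p = 0.174).

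Zfp664 had the smallest p of the 144 genes in labelled RNA and was lower in every KO library of both fractions. Its preexisting libraries read 23, 19.1, 28 and 17.8 TPM in KO cells, against 36.1, 32.1, 40.1 and 43.9 TPM in WT cells, a log2 change of −0.78 (SE 0.25, adjusted p = 0.178). Its labelled libraries read 16.6, 12.9, 21.6 and 20.5 TPM in KO cells, against 27.5, 23.9, 31.8 and 38.5 TPM in WT cells, a log2 change of −0.74 (SE 0.25, adjusted p = 0.285). Its intronic labelled RNA had a log2 change of −0.02. Zfp707 and Zfp972 had preexisting log2 changes of −0.998 (adjusted p = 0.211) and −0.82 (adjusted p = 0.183), and Zfp972 is a near copy of its neighbours, sharing 58.4% of its words. Zfp707 was near the floor and its genotypes overlapped. Its preexisting libraries read 0, 1.36, 0.098 and 0.056 TPM in KO cells, against 1.82, 3.70, 0.504 and 1.19 TPM in WT cells.

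**Figure D4:**
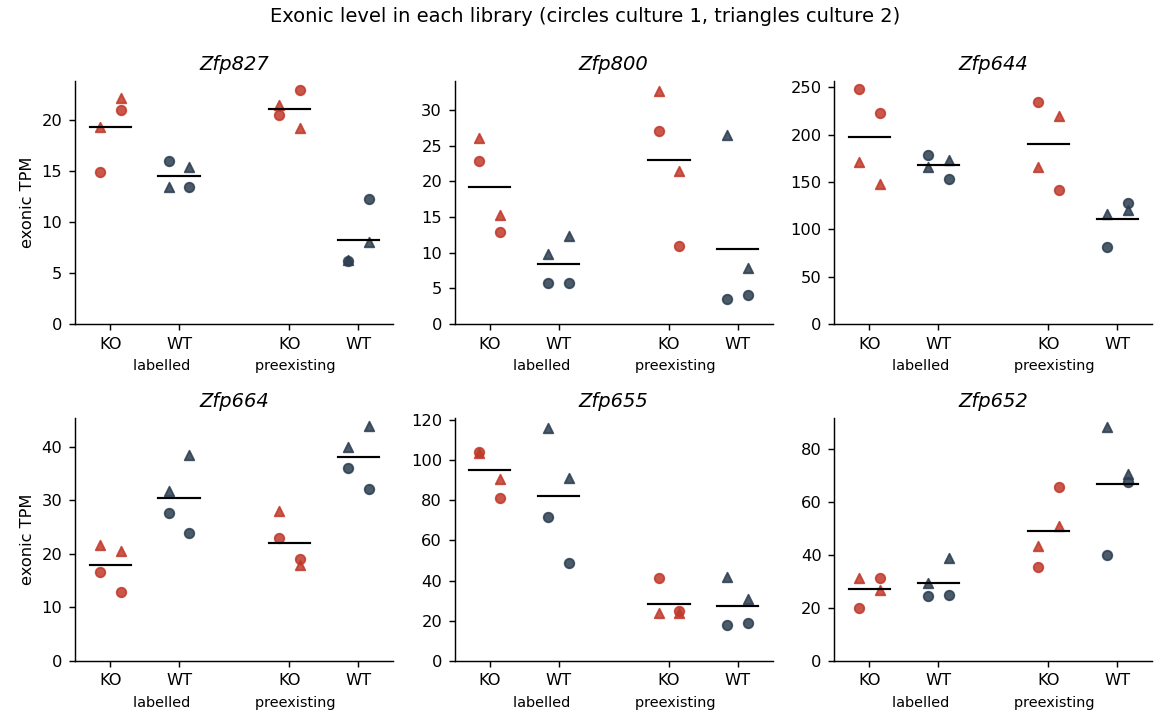
Exonic TPM of 6 zinc finger genes in each library, KO (red) left of WT (dark) in each fraction, with circles for culture 1, triangles for culture 2, the 10 min library left of the 15 min library and a line at the mean. Zfp827 preexisting RNA separates at 19.3 to 23 TPM in KO cells and 6.22 to 12.3 TPM in WT cells, whereas Zfp655 and Zfp652 separate by fraction and not by genotype.

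The 20 genes with AGCACTT in the 3′ UTR had a median preexisting change of −0.04, and the 104 with an annotated 3′ UTR and no match had −0.06. The 5 genes with at least 2 matches (Zfp800, Zfp827, Zfp870, Zfp668 and Zfp866) had a median of 0.36, with 4 of 5 positive, and include both genes shown above. Over protein-coding genes the medians were 0.20 for 1722 genes with a match, 0.25 for 312 genes with at least 2, and 0.01 for 9240 genes with none. These are medians of overlapping kinds of genes and were not tested.

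**Figure D5:**
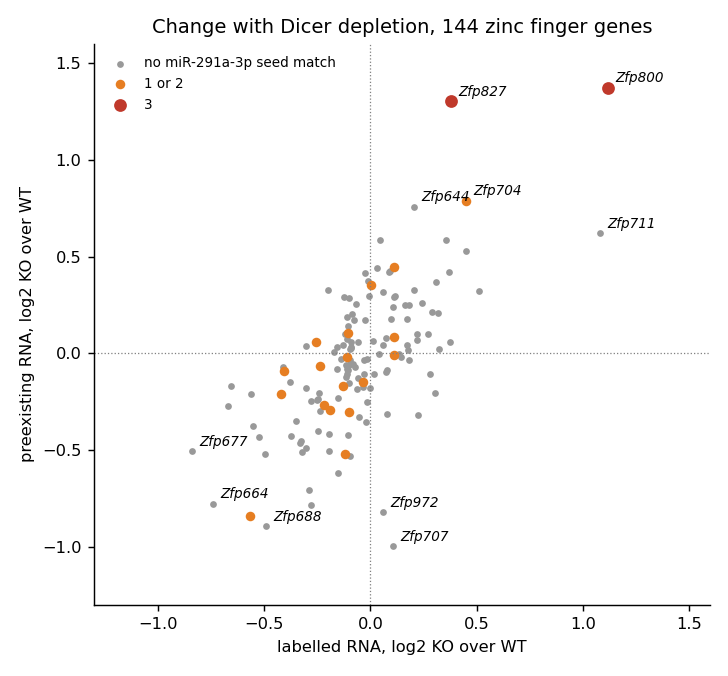
Log2 change of KO over WT cells in labelled RNA (horizontal) and preexisting RNA (vertical) for the 144 zinc finger genes, coloured by the number of miR-291a-3p seed matches in the 3′ UTR, where grey includes genes with no annotated 3′ UTR. Zfp827 and Zfp800, with 3 matches each, lie highest at 1.30 and 1.37, while genes with 1 or 2 matches lie on both sides of 0.

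In labelled RNA no zinc finger gene was called in either direction by limma (5 had an unadjusted p under 0.05), where 0.0798% of protein-coding genes were higher and 0% lower, and 0.0917% and 0.0367% of all entries. The median log2 change was −0.07. All 4 KO libraries were above all WT libraries for 5 genes (Zfp750, Zfp800, Zfp820, Zfp868 and Zfp963; 3.47%), against 11.4% of protein-coding genes and 10.9% of all entries. They were below for 9 genes (Zfp623, Zfp658, Zfp664, Zfp667, Zfp740, Zfp846, Zfp978, Zfp985 and Zfp993; 6.25%), against 4.8% and 4.5%. Among these, Zfp978, Zfp985 and Zfp993 of the chromosome 4 cluster shared 75.9%, 15.7% and 86.8% of their words with other genes. After Zfp664, the smallest p-values were those of Zfp677 at −0.84, Zfp623 at −0.65, Zfp958 at −0.55, Zfp740 at −0.50 and Zfp820 at 0.51. Zfp677 and Zfp623 averaged 1.90 and 1.40 TPM over all libraries, close to the limit of 1 TPM. Zfp750, known for epidermal differentiation, was above in both fractions, with 3.27 ± 0.0672 TPM in preexisting RNA of KO cells and 1.83 ± 0.0580 TPM in WT cells (log2 change 0.58, adjusted p = 0.219).

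The change of the labelled to preexisting ratio between genotypes had a median of −0.01 and no call, with 0% of protein-coding genes and of all entries called by limma, where 3 zinc finger genes and 940 entries had an unadjusted p under 0.05. After Zfp827, the smallest p-values belonged to Zfp707 at 1.10, Zfp972 at 0.88, Zfp644 at −0.55, Zfp606 at 0.54 and Zfp605 at −0.52. Zfp707 averaged 1.40 TPM over all libraries, close to the limit of 1 TPM. With 2 cultures a group, an exact permutation test of 1 gene cannot go below p = 0.333, so calls rest on limma's pooled spread.

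Intronic signal averaged at least 1 TPM over all 16 libraries, labelled and preexisting together, in 129 of the 144 genes. Their intronic labelled RNA was compared between genotypes. One, Zfp748 on chromosome 13, was called higher in KO cells, with 7.04 ± 1.02 TPM in KO cells and 3.72 ± 0.421 TPM in WT cells (log2 change 0.77, SE 0.15, adjusted p = 0.0404), and none was called lower. The background was 4.28% higher and 0.033% lower over protein-coding genes, and 4.19% and 0.0481% over all entries. The family's median change was 0.27 and that of all entries 0.28, and centring moved the latter by 0.28 and left no zinc finger gene called. The family's intronic values thus moved by about as much as those of all entries. The intronic sum of the chromosome 4 cluster was 2161 ± 314 TPM in KO cells and 1678 ± 148 TPM in WT cells, while its exonic labelled sum was 4327 ± 64.3 TPM in KO cells and 4809 ± 391.8 TPM in WT cells; these sums were not tested. Zfp820, Zfp711, linked to X-linked intellectual disability in humans, and Zfp819, which represses retrotransposons in mouse cells, had intronic changes of 0.91, 0.72 and 0.79 that did not pass (adjusted p = 0.0553, 0.0577 and 0.0808).

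None of the other genes of known role was called between genotypes. Zfp706, needed for mouse embryonic stem cells to leave self-renewal, had 11.7 ± 2.64 TPM in preexisting RNA of KO cells and 9.80 ± 0.906 TPM in WT cells (adjusted p = 0.681). Zfp708, a repressor of the RMER19B retrotransposon, had 7.28 ± 0.613 TPM in KO cells and 4.87 ± 0.801 TPM in WT cells (adjusted p = 0.338), and all its words were shared with another gene. Zfp819 had 34.0 ± 0.120 TPM in KO cells and 33.9 ± 8.04 TPM in WT cells (adjusted p = 0.99). Zfp668, whose human counterpart acts in DNA repair, had 1.25 ± 0.348 TPM in KO cells and 1.14 ± 0.551 TPM in WT cells. Zfp687, whose human counterpart is mutated in a form of Paget disease of bone, had 12.6 ± 7.42 TPM in KO cells and 17.7 ± 4.59 TPM in WT cells. Zfp830, whose human counterpart is found with splicing factors, had 19.1 ± 2.15 TPM in KO cells and 14.1 ± 1.91 TPM in WT cells (adjusted p = 0.367). Zfp618 and Zfp703 averaged 0.511 and 0.263 TPM and were below the limit.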

How the data were processed

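RNA was measured in 16 4-thiouridine libraries, which were made with an Ovation RNA-seq kit from 10 ng of RNA per the labels' protocols. The authors removed ribosomal reads with STAR 2.5.0, aligned the rest to exonic and intronic sequence of mm10 with STAR and quantified it with RSEM, per the labels' protocols. The deposited signal sums to 10000000 per library, so values were divided by 10 and called TPM. Read depth is unknown, so no counting interval is given. Transcripts and introns were summed per gene, and entries that matched no gene held 5.57% to 7.60% of the signal. Length-scaled values give short transcripts more weight, and near-copy genes share reads.

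Values at 10 and 15 min were averaged per culture on the log2(TPM + 1) scale and compared with limma 3.58.1 (R 4.3.3, trended prior, no block) over 21821 exonic genes and entries with a mean of at least 1 TPM and 12472 intronic ones, with Benjamini-Hochberg adjustment. TPM means and SD are over 2 cultures. The fits were tested on simulated data. Genes named are the 10 highest in WT preexisting RNA; for each genotype comparison up to 8 called in each direction or the 6 with the smallest p; for each ratio the 8 highest and 8 lowest with at least 5 TPM in 1 of the fractions, which admits genes such as Zfp709 and Zfp612 through their labelled level alone; genes of known role; and the largest clusters. Zfp936 and other genes listed by non-overlapping libraries, and Zfp704, were named after their values were seen. The members, lists and the seed match were chosen with earlier results of these data known. Alternatives were another pseudocount, no filter, median centring, each labelling time, each fraction alone, a replicate block, each culture left out and length-weighted signal. Python 3.11.15 was used with pandas 2.3.3, numpy 2.4.6, matplotlib 3.10.9 and biopython 1.88.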

Additional observations from a re-analysis of the deposited data

How the results depend on the processing

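Over 51 gene and comparison pairs and 572 alternative values, 448 kept direction and side of the threshold, 109 lost their call, 11 gained one and 4 changed sign. Those 4 came with length-weighted signal: Zfp600 at 0.21, Zfp993 at 0.10 and Zfp605 at 0.055 in the KO ratio and Zfp987 at 0.069 in the WT ratio. This weighting also raised the median of all protein-coding genes to 0.26 in KO cells and 0.20 in WT cells, so these 4 lay below that median both with and without it. The 1 preexisting call between genotypes became 0 with no filter, centring, 10 min alone, 15 min alone, preexisting libraries alone and each culture left out, and its family median ran between −0.148 and 0.0823 with a culture left out. The 37 KO ratio calls became 7 with 10 min alone, 19 with 15 min alone, 70 with length weighting and 13 to 19 with a culture left out, and the median became −0.27 with centring and 0.59 with length weighting. The 30 WT ratio calls became 17 with no filter, 6 with 10 min alone, 10 with 15 min alone, 53 with length weighting and 0 to 34 with a culture left out, and the median became −0.24 with centring, 0.52 with length weighting and 0.15 to 0.41 with a culture left out. The 1 intronic call became 0 with a pseudocount of 0.1, centring, 10 min alone, 15 min alone, labelled libraries alone and each culture left out, and 4 with no filter; its median became −0.012 with centring and 0.14 to 0.38 with a culture left out. A lone remaining culture is assumed to vary like the other groups, and those fits have fewer samples. Under every alternative run, labelled exonic RNA and the change of the ratio had 0 calls. Same-numbered cultures deviated together with correlations of 0.16 in labelled and 0.22 in preexisting RNA. There are only 2 pairs, however, and the labels name no shared day. With a replicate block the counts were 1 preexisting, 0 labelled, 40 KO ratio, 34 WT ratio, 0 ratio change and 13 intronic. The counts of calls in this section are of zinc finger genes alone. Shares of all genes called under the same settings are not given here, so these counts are no result about the family. Depth is unknown, so what it limits cannot be given.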
